A study of Homo sapiens with 6 samples.

Results

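Selenoproteins carry selenocysteine, an amino acid that is inserted at a UGA codon which in other messages would end translation. The 31 genes described here, of 60420 listed in the table, were taken by name. They are the 25 human genes whose message has such a recoded UGA, and 6 genes not themselves recoded, called synthesis factors here. Those 6 act in making or inserting selenocysteine or, in the case of SEPHS1 and SECISBP2L, are relatives of genes that do. All 31 were matched. Of these, 19 had a mean of at least 5 TPM (a share of all transcripts, scaled for gene length) over the 6 libraries and were compared between treatments: 16 of the 25 selenoproteins and 3 of the 6 synthesis factors. The members that passed are the more abundant ones and do not stand for all 31.

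In the cell, selenocysteine is built on its own transfer RNA: PSTK phosphorylates the serine it first carries, SEPHS2 makes the selenium donor, and SEPSECS completes the exchange. A hairpin in the untranslated end of the message, the SECIS element, binds SECISBP2 and recruits the elongation factor EEFSEC, which delivers the transfer RNA to the UGA. A ribosome that reaches the UGA can thus read through it or stop there, and a message whose UGA is read as a stop can be destroyed by nonsense-mediated decay.

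The study compared HEK293T cells, a human embryonic kidney line with the SV40 large T antigen, under the vehicle DMSO, an inhibitor of PRMT1 and an inhibitor of PRMT4 (CARM1). Both targets are arginine methyltransferases, which modify many RNA-binding proteins, and the labels give neither a compound nor a dose or time. Every treatment had 1 input library, which served as the measure of RNA, and 1 library of fragments protected by ribosomes (footprints), so there were 6 libraries and none had a replicate. All of them are described in the labels as ribosome-protected RNA, and the preparation of the inputs is not given in the sources. With 1 library per group there is no error estimate and no test: every difference below compares 2 libraries and has no replicate check.

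Across the libraries, 30576 to 30860 genes were above 0 in the inputs and 20485 to 21161 in the footprints, and the depth is unknown because TPM keeps none. Protein-coding genes held 45.7% of input TPM with DMSO, 38.7% with the PRMT1 label and 33.4% with the PRMT4 label; of footprint TPM they held 74.3%, 62.3% and 70.6%. Of 6 genes chosen as HEK293T markers, 3 reached 1 TPM in the DMSO input (VIM, NEFL and LHX1) while NES, PAX2 and NEFM did not. Blood markers reached at most 0.02 TPM in any library, liver markers 1.1 TPM and fibroblast markers 3.82 TPM. The labels of the inhibitor libraries did not pair well: over 8117 protein-coding genes, the footprint ratio to DMSO of the library labelled PRMT1 inhibitor correlated at 0.36 with the input ratio of its own label and at 0.56 with that of the PRMT4 label. For the footprints labelled PRMT4 inhibitor the values were 0.20 with their own input and 0.46 with the other. Libraries are therefore called by their labels, and footprint-over-input results are given with both pairings.

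The recoded codons differ in where they sit, which sets how much of the protein lies beyond the decision at the UGA. The sequences below are 30 bases of the coding strand around the recoded codon, from the transcripts of GENCODE release 29, with the codon in capitals (TGA in DNA letters). They show 4 selenoproteins in which 69 or more codons follow the UGA and 4 with the UGA in the last 3 codons, where the genuine stop codon is also in view.
GPX1: gtggcgtccctcTGAggcaccacggtccgg
GPX4: gtggcctcccagTGAggcaagaccgaagta
SELENOW: tattgtggcgctTGAggctacaagtccaag
SELENOF: gaagtttgtggaTGAaaattgggaaggttc
TXNRD1: agcatcctccaggctggctgcTGAggttaa
TXNRD2: gaccccacggtgacaggctgcTGAgggtaa
SELENOS: agaggcccgtcatctggcggaTGAggctaa
SELENOK: cctccaatggctggtggaTGAggaaggtaa

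In GPX1 the UGA was codon 49 of 203 and in GPX4 codon 73 of 197, so in both the greater part of the protein follows it. SELENOW had it at codon 13 of 87 and SELENOF at codon 96 of 165. In TXNRD1 (codon 498 of 499), TXNRD2 (523 of 524) and SELENOS (188 of 189) a single codon remained, and in SELENOK (92 of 94) there were 2. Over the 25 selenoproteins, 22 had 1 recoded UGA and 3 had more; SELENOP, the secreted selenium carrier, had 10. The base after the codon, which can affect how well a stop is read, was G in 13 of 25 and in 10 of the 16 compared. Of those 16, 6 had at most 10 codons after the UGA.

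The peroxidases GPX1 and GPX4 were the most abundant selenoproteins, together 52.2% of the selenoprotein TPM in the DMSO input and 56.9% in the DMSO footprints. GPX1 (ENSG00000233276.3_3), which reduces hydrogen peroxide in the cytosol, had an input level of 261 TPM with DMSO, against 186 TPM for the PRMT1 label and 200.5 TPM for the PRMT4 label. In footprints it stood at 320.4, 300.3 and 293 TPM in the same order. DMSO held the highest value of both kinds, with a wider gap in the inputs. Relative to the median gene (log2, centred as described below), GPX1 stood at -0.33 and -0.01 in the PRMT1 and PRMT4 inputs. In footprints the values were 0.05 and -0.12. A processed copy, GPX1P1, found by name after the values were seen, was listed at 8.41% to 15.5% of the GPX1 level over the 6 libraries, so reads may be split between the pair.

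GPX4 (ENSG00000167468.16_3) reduces lipid peroxides in membranes and is the enzyme that holds back ferroptosis. Its input TPM was 237 in DMSO, 174 in the PRMT1 label and 158 in the PRMT4 label. Its footprint TPM was 439, 309 and 402. Both inhibitor inputs were below DMSO, and the lowest footprint value was in the library labelled PRMT1 inhibitor, at 0.705 times DMSO. GPX3, the extracellular peroxidase, was far less abundant, with 8.71, 11.4 and 8.44 TPM in input and 15.6, 20.4 and 24.9 TPM in footprints, so both inhibitor footprint values exceeded DMSO. GPX2 and GPX6, peroxidases of the gut and of the olfactory lining, were under 1 TPM in all libraries, and GPX6 was listed at 0 in all 6.

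The thioredoxin reductases keep thioredoxin reduced and use a selenocysteine next to their last residue. TXNRD1 (ENSG00000198431.15_3), the cytosolic enzyme, had input levels of 87.8 TPM under DMSO, 71.6 TPM under the PRMT1 label and 53.2 TPM under the PRMT4 label. Its footprints were 94.5, 82.1 and 111 TPM. The input labelled PRMT4 inhibitor was thus the lowest of 3 and the footprint library of that label the highest. TXNRD2 (ENSG00000184470.20_3), the mitochondrial enzyme, had input values of 5.54, 6.21 and 8.16 TPM and footprint values of 6.04, 7.72 and 6.88 TPM, with DMSO lowest in both. TXNRD3 averaged 4.7 TPM and was not compared.

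Among the selenoproteins of the endoplasmic reticulum, 6 of 7 were compared. SELENOF, which binds the enzyme that checks glycoprotein folding, had 64.6, 67.6 and 55.8 TPM in input but 19.5, 22.8 and 22.6 TPM in footprints. SELENOM, a thioredoxin-like protein of the same compartment, showed the reverse order of levels, with 26.8, 23.7 and 22.6 TPM in input and 63.8, 60.6 and 74.5 TPM in footprints. SELENOS and SELENOK are membrane proteins that take part in the removal of misfolded proteins. SELENOS (ENSG00000131871.14_2) had 6.93, 8.52 and 10.0 TPM in input and 13.5, 17.6 and 16.3 TPM in footprints, and DMSO was the lowest of both. SELENOK had 18.5, 19.3 and 21.3 TPM in input and 17.6, 24.2 and 19.1 TPM in footprints, again lowest in DMSO. SELENOT, a thioredoxin-fold oxidoreductase, had 12.9, 13.4 and 12.6 TPM in input and 4.40, 4.46 and 6.03 TPM in footprints; its exons overlap SERP1 on the opposite strand, a gene at a mean of 114 TPM named here for that overlap, and the sources do not say whether counting used the strand. The same doubt about strand applies to TXNRD2, at a mean of 6.76 TPM, where the overlapping gene had a mean of 25.4 TPM. It also applies to EEFSEC and PSTK, which are overlapped on the opposite strand by genes at means of up to 56.7 and 6.68 TPM. SELENOI, an enzyme of phosphatidylethanolamine synthesis, had 11.1, 11.3 and 7.95 TPM in input and 8.04, 7.60 and 7.57 TPM in footprints. SELENON, linked to calcium handling in muscle, averaged 3.8 TPM.

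Other compared selenoproteins act as small reductases or have single roles. SELENOW, a small thioredoxin-like protein, had input values of 58.7, 64.5 and 59.5 TPM and footprint values of 119, 145 and 139 TPM, with both inhibitor footprint values above DMSO. MSRB1, which repairs oxidised methionine, had input values of 42.9, 30.9 and 27.4 TPM and footprint values of 73.2, 66.0 and 73.9 TPM. The inputs of MSRB1 thus stood apart from DMSO more than its footprints did. SELENOH, a nucleolar redox protein, had input values of 56.9, 48.2 and 54.3 TPM and footprint values of 63.2, 63.9 and 60.6 TPM. SELENOO, a mitochondrial enzyme that transfers AMP to proteins, lay between 5.90 and 9.94 TPM in all 6 libraries. SELENOP, SELENOV and the deiodinases DIO1, DIO2 and DIO3, which activate or inactivate thyroid hormone, were under 1 TPM throughout.

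Of the genes listed for building and inserting selenocysteine, SEPHS2 and SEPHS1 were well above the rest. SEPHS2, the working synthetase and itself a selenoprotein, had input values of 30.4, 24.9 and 20.1 TPM and footprint values of 65.9, 47.6 and 72.7 TPM. SEPHS1 (ENSG00000086475.14_2), its relative without selenocysteine, had input values of 68.7, 59.4 and 49.8 TPM and footprint values of 81.3, 48.7 and 75.7 TPM. In both genes the footprint library labelled PRMT1 inhibitor was the lowest of 3 and the input labelled PRMT4 inhibitor the lowest of 3. GPX4, TXNRD1, MSRB1, SELENOM, SECISBP2 and SECISBP2L had their lowest values in the same libraries, so this does not mark the pair. Set against the median gene, as described below, that input had SEPHS2 at -0.21 and SEPHS1 at -0.09 on the log2 scale. SECISBP2, the SECIS-binding protein, had 15.4, 12.8 and 11.1 TPM in input and only 3.17, 2.93 and 3.16 TPM in footprints. Its relative SECISBP2L had 6.22, 6.58 and 4.14 TPM in input and 9.71, 6.48 and 9.36 TPM in footprints. EEFSEC, SEPSECS and PSTK averaged 3.8, 3.3 and 3.3 TPM, under the level needed for comparison, although each was above 1 TPM in all libraries.

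**Figure D1:**
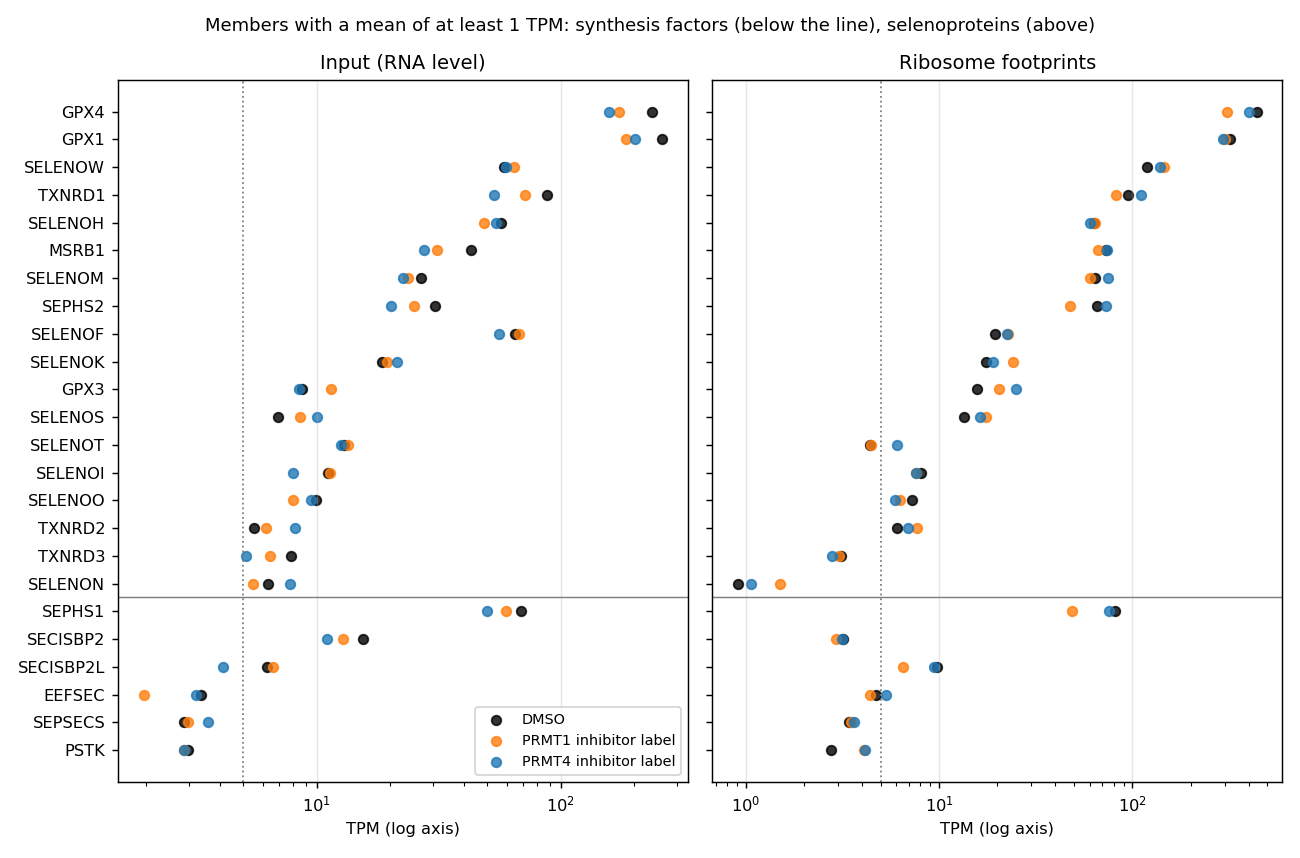
TPM of the 24 members with a mean of at least 1 TPM, on log axes, in the 3 inputs (left) and the 3 footprint libraries (right); each point is 1 library and the dotted line marks 5 TPM. GPX4 and GPX1 stand highest in both panels. Members that lie further left in footprints than in input include SELENON, SECISBP2, SELENOF, SELENOT and TXNRD3.

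Ratios between libraries were taken as log2 of (TPM + 1) and centred on the median of the 9040 genes compared, so that 0 means a gene that moved as the median gene did. Before centring, that median stood at -0.16 (PRMT1 label) and -0.37 (PRMT4 label) for inputs, and at -0.15 and -0.01 for footprints. A centred value can therefore differ in sign from the raw TPM: GPX3 in the input labelled PRMT4 inhibitor is 0.32 centred and -0.04 uncentred. The DMSO libraries serve as the reference for both inhibitors, so the values for the inhibitors are not independent of each other.

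In the input labelled PRMT1 inhibitor, 0 of the 19 members differed from DMSO by at least 2-fold, where 0.819% of all compared genes did. Calls were rarer among the 8117 protein-coding genes compared, with 1 higher and 2 lower, so 0 of 19 does not set the members apart. The selenoproteins had a median of 0.08, with 8 of 16 above 0, between -0.33 (GPX1) and 0.51 (GPX3). GPX1, MSRB1 at -0.30 and GPX4 at -0.29 lay at percentiles 6.49, 8.14 and 8.63 of all compared genes. GPX3 lay at percentile 97.5 and SELENOS, at 0.42, at percentile 96.1. The 3 synthesis factors had a median of -0.05, and SECISBP2L was highest at 0.23.

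In the input labelled PRMT4 inhibitor the count was again 0 of 19, against 2.44% of all compared genes. The selenoprotein median was 0.23, with 10 of 16 above 0. TXNRD2 at 0.85 and SELENOS at 0.84 were the highest, at percentiles 97.4 and 97.3, and SELENOK followed at 0.55. TXNRD1 was the lowest at -0.35, so the reductases of the mitochondria and the cytosol lay at opposite ends of the list. The synthesis factors lay between -0.13 and -0.08. These medians depend on the scale: without centring the selenoprotein medians were -0.08 (PRMT1 label) and -0.14 (PRMT4 label). With TPM rescaled over protein-coding genes, also without centring, they were 0.15 and 0.30. That scale leaves out genes of the mitochondrial genome, which the protein-coding shares given above include.

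In footprints labelled PRMT1 inhibitor, 0 of 19 members reached 2-fold against 3.83% of all compared genes. The selenoprotein median was 0.12 (-0.03 without centring), with 11 of 16 above 0. SELENOK at 0.58, GPX3 at 0.51 and SELENOS at 0.50 were the highest, and GPX4 at -0.36 and SEPHS2 at -0.32 the lowest. All 6 compared selenoproteins of the endoplasmic reticulum were above 0, with a median of 0.26, where 50% of all compared genes are above 0 by construction. Without centring 4 of the 6 were above 0, SELENOI and SELENOM being at -0.07, and the median was 0.12. SEPHS1 lay below every selenoprotein, at -0.58 and percentile 4.69, and SECISBP2L was at -0.37, which put the synthesis factor median at -0.37.

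In footprints labelled PRMT4 inhibitor, 0 of 19 members reached 2-fold against 0.896% of all compared genes. The selenoprotein median was 0.16, with 11 of 16 above 0, and it was 0.15 without centring. GPX3 was again at the upper end, at 0.65 and percentile 97.6, followed by SELENOT at 0.39. SELENOO was the lowest at -0.25. The 3 synthesis factors lay between -0.10 and 0.00.

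**Figure D2:**
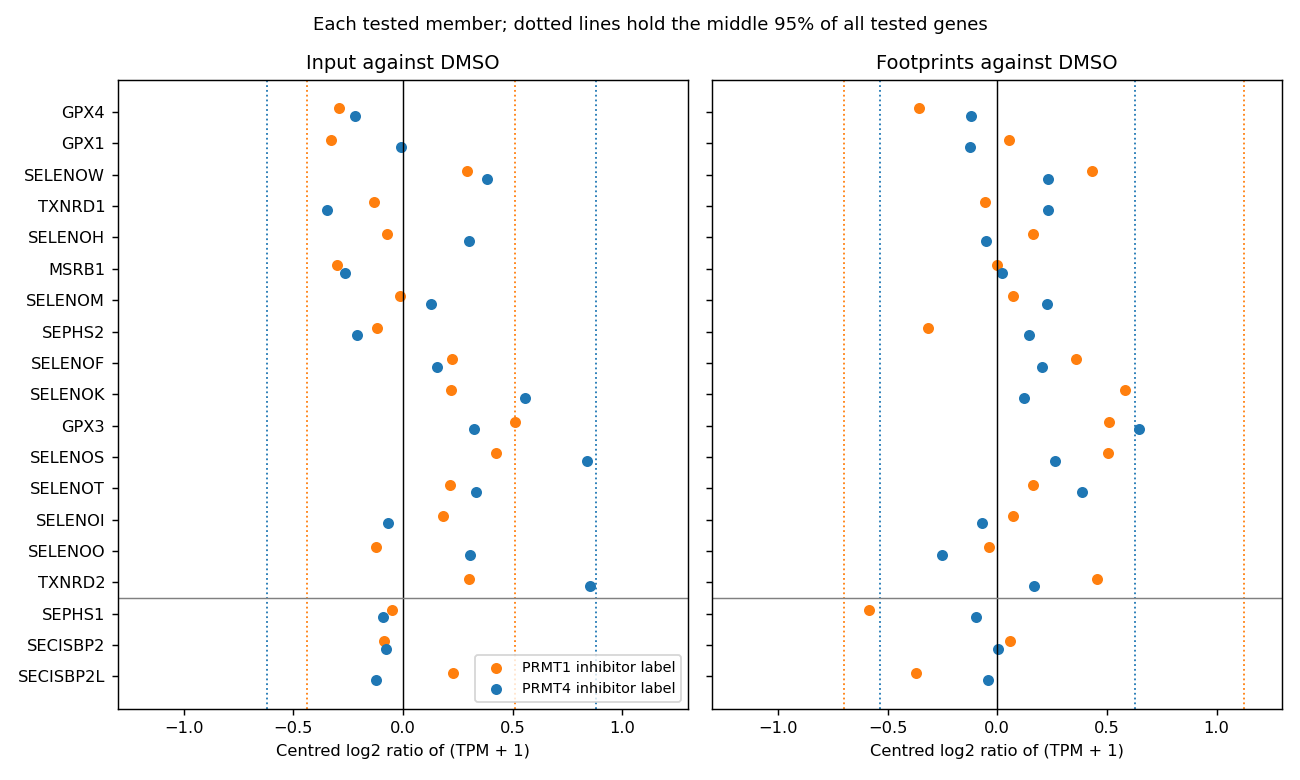
Centred log2 ratio to DMSO of each of the 19 compared members in input (left) and footprints (right); dotted lines in each colour enclose the middle 95% of all compared genes for that inhibitor label. GPX3 at 0.65 in footprints labelled PRMT4 inhibitor lies just outside its lines, and the other points lie inside or on theirs.

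The difference between the selenoprotein and synthesis factor medians does not depend on the centring. In inputs it was 0.13 for the PRMT1 label and 0.32 for the PRMT4 label, and in footprints 0.49 and 0.20. The synthesis side of each rests on 3 genes, and in the footprints labelled PRMT1 inhibitor on SEPHS1 and SECISBP2L, the relatives of SEPHS2 and SECISBP2. SECISBP2 itself stood at 0.06 in those footprints. With genes from 1 TPM upwards included, which brings in EEFSEC, SEPSECS and PSTK, the 4 differences were -0.05, 0.12, 0.08 and 0.10.

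Selenoproteins are also ranked by how well their messages hold up when selenium is short. Of the messages known as sensitive, GPX1, MSRB1, SELENOH and SELENOW had median input ratios of -0.19 for the PRMT1 label and 0.14 for the PRMT4 label. The 7 messages listed as resistant (GPX4, TXNRD1, TXNRD2, SELENOF, SELENOT, SELENOK and SELENOS) had medians of 0.22 and 0.33. In footprints the sensitive group stood at 0.11 and -0.02 and the resistant group at 0.36 and 0.21. Each group was mixed: SELENOW stood at 0.29 in the input labelled PRMT1 inhibitor beside GPX1 at -0.33, and among the resistant messages GPX4 and TXNRD1 were below 0 in both inputs. The ratios to DMSO followed abundance in part: over the 16 selenoproteins Pearson's r between log2 mean TPM and the ratio was -0.63 for the PRMT1 input and -0.59 for the PRMT4 input, and over 8117 protein-coding genes it was -0.25 and -0.28. Its part in the differences between groups was not tested.

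Footprints over input, a measure of how many ribosomes a message carries for its level, varied more between members than any ratio to DMSO did. In DMSO, 5 of 19 members stood at least 2-fold from the median gene, where 35.4% of all compared genes did. SELENOM at 1.13 and SEPHS2 at 1.0, on the threshold, were higher, as were 16.4% of all compared genes. SELENOF at -1.76, SELENOT at -1.45 and SECISBP2 at -2.06 were lower, as were 19% of all compared genes. SELENOW at 0.92 and GPX4 at 0.80 lay just short of 2-fold. The 16 selenoproteins had a median of 0.14 with 11 above 0, and of 0.22 without centring. With TPM rescaled over protein-coding genes outside the mitochondrial genome, also without centring, the median was -0.47 with 7 above 0. On that scale 0 does not stand for the median gene, so -0.47 does not place the selenoproteins below it. The 2 members that bind SECIS elements stood apart from each other, SECISBP2L being at 0.48. Gene-level TPM does not show where on a message the footprints lie, so ribosomes that stop at the UGA and ribosomes that read through it cannot be told apart.

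Position of the UGA was set beside these values. The 6 selenoproteins with at most 10 codons after the UGA (TXNRD1, TXNRD2, SELENOI, SELENOK, SELENOO and SELENOS) had a median footprint-over-input value of -0.07 in DMSO, and the 10 with a longer remainder had 0.68. The ranges overlapped: SELENOS, with 1 codon left, was at 0.78, while SELENOF and SELENOT, with 69 and 146 codons left, were the 2 lowest of the 16 compared selenoproteins. Taken without a cut, the relative position of the UGA had Pearson's r of -0.24 with these values over the 16 messages, and Spearman's rho of -0.44. GC content of the transcript moved with the same values, with Pearson's r of 0.63 over the 16 messages, and so did the coding share of the transcript, with r of 0.37. For log2 mean TPM r was 0.37, and 0.42 over 8117 protein-coding genes. The part of GC content, transcript structure and abundance in the difference was not tested.

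**Figure D3:**
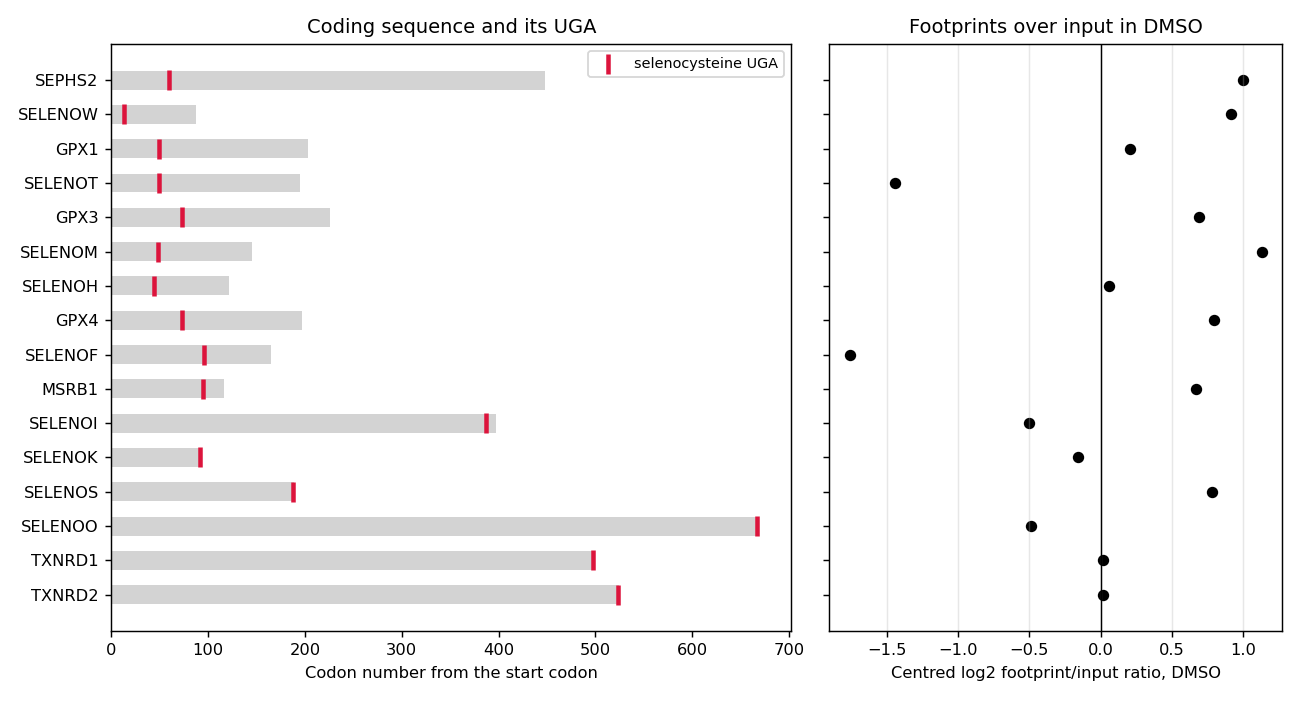
Left, the coding sequence of each of the 16 compared selenoproteins as a grey bar in codons from the start, with the recoded UGA in red, in order of its relative position; right, the centred log2 footprint-over-input ratio of the same gene in DMSO. SEPHS2, with an early UGA, is at 1.0 and SELENOF is lowest at -1.76, and the 6 genes at the bottom have at most 10 codons after the UGA.

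A UGA that lies well upstream of the last exon junction is the arrangement that can expose a message to nonsense-mediated decay. Of the 16 compared selenoproteins, 9 had the UGA more than 50 bases before that junction: GPX1, GPX3, GPX4, TXNRD2, SELENOF, SELENOH, SELENOM, SELENOT and SELENOW. Their median input ratio was 0.21 for the PRMT1 label and 0.30 for the PRMT4 label. The other 7 had -0.12 and -0.07. In footprints the medians were 0.16 against 0.00 for the PRMT1 label and 0.21 against 0.12 for the PRMT4 label. The groups overlapped in all 4 comparisons; SELENOS, whose UGA is 13 bases before the junction, was above all but 1 of the 9 in both inputs.

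Change in footprints over input was then compared with DMSO. With libraries paired by their labels, 0 of 19 members reached 2-fold for the PRMT1 inhibitor label, against 4.12% of all compared genes, and 0 of 19 for the PRMT4 inhibitor label, against 2.94%. The selenoprotein medians were 0.08 and 0.01, which was 0.62 above and 0.06 below those of the synthesis factors. For the PRMT1 label SECISBP2L at -0.60 and SEPHS1 at -0.54 were the lowest, at percentiles 3.48 and 4.97, and GPX1 at 0.38 the highest. SECISBP2, the remaining synthesis factor compared, stood at 0.14. For the PRMT4 label TXNRD1 was the highest, at 0.57 and percentile 94.8, and TXNRD2 the lowest, at -0.69 and percentile 5.25. SELENOS at -0.59, SELENOO at -0.57 and SELENOK at -0.45 lay with TXNRD2. These 4 and TXNRD1 all have 1 or 2 codons after the UGA, so members of that arrangement were found at both ends.

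With each footprint library set over the input of the other inhibitor, 0 of 19 members reached 2-fold, where 3.24% of all compared genes did for footprints labelled PRMT1 inhibitor and 1.52% for those labelled PRMT4 inhibitor. For the footprints labelled PRMT1 inhibitor SEPHS1 stood at -0.51, near its value above, while SECISBP2L came to -0.26. GPX1, the highest there with the input of the same label, came to 0.05. TXNRD1 stayed above 0 for the footprints labelled PRMT4 inhibitor, at 0.36. TXNRD2 came to -0.14, SELENOS to -0.17, SELENOO to -0.14 and SELENOK to -0.11, all closer to the median gene. For the footprints labelled PRMT1 inhibitor the same exchange took TXNRD2 from 0.15 to -0.41, SELENOS from 0.08 to -0.35 and SELENOO from 0.08 to -0.36, further from the median gene, and SELENOK from 0.36 to 0.01. The values of TXNRD2, SELENOS and SELENOO were lower with the input labelled PRMT4 inhibitor than with the other input, under both footprint libraries. So were those of other members, among them SELENOK and SELENOH, the latter with 78 codons after its UGA. Both pairings with that input subtract the same input ratio, in which TXNRD2, SELENOS and SELENOO stood at 0.85, 0.84 and 0.31. The shared low values follow from that library by construction and are no separate evidence. The 6 selenoproteins with a late UGA had a median of -0.51 for the PRMT4 label with its own input and of -0.14 with the other input, and the remaining 10 had 0.06 and 0.16. For the footprints labelled PRMT1 inhibitor the median of the 6 was 0.08 with their own input and -0.17 with the other, and that of the 10 was 0.11 and -0.02.

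**Figure D4:**
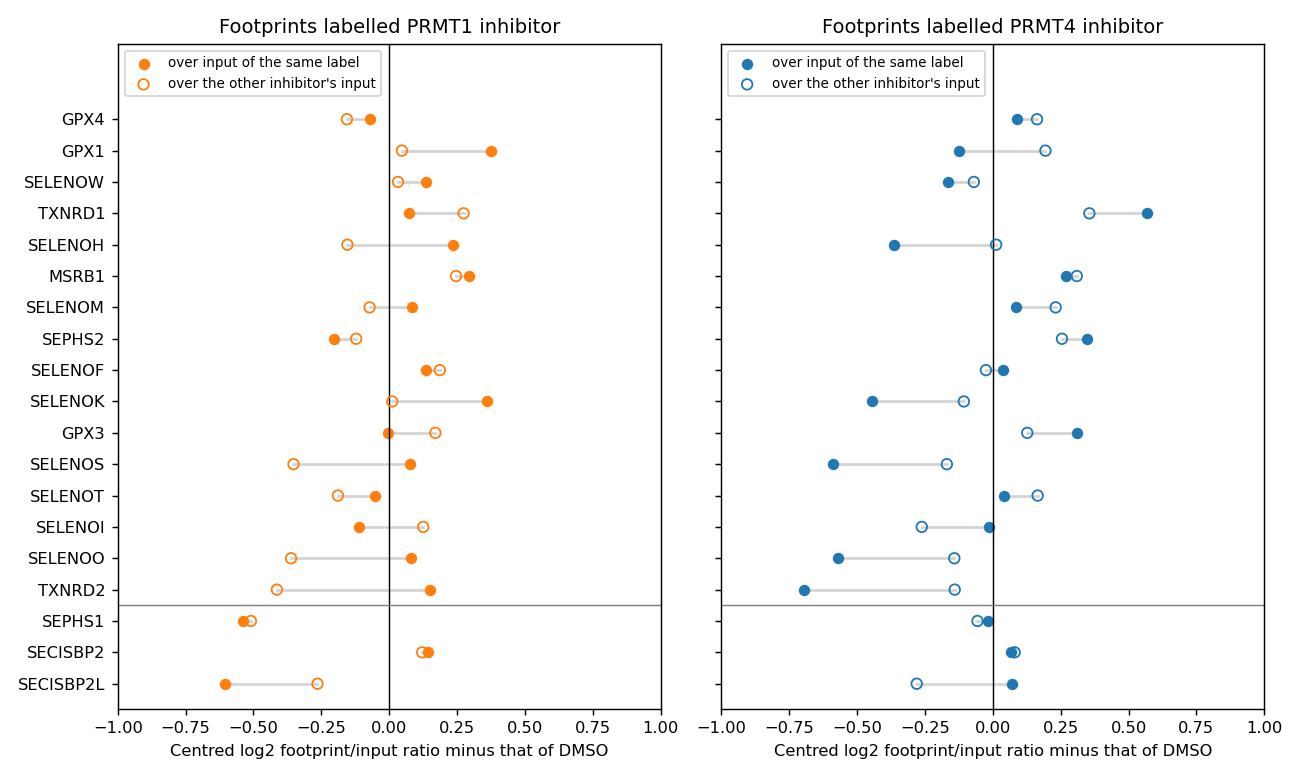
Centred log2 footprint-over-input ratio minus that of DMSO for the 19 compared members, for footprints labelled PRMT1 inhibitor (left) and PRMT4 inhibitor (right); filled points use the input of the same label, open points the input of the other inhibitor, and the grey line joins them. TXNRD2, SELENOS, SELENOO and SELENOK move towards 0 on the right under the other pairing; on the left TXNRD2, SELENOS and SELENOO move from 0.15, 0.08 and 0.08 to -0.41, -0.35 and -0.36, and SEPHS1 is at -0.54 and -0.51.

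The inhibitor labels were also set against each other without DMSO. The PRMT1 label minus the PRMT4 label had opposite signs in input and in footprints for 12 of the 19 members, where 63.9% of all compared genes did so. The members are thus near the share of all genes. TXNRD2 was at -0.53 in input and 0.29 in footprints, SELENOK at -0.32 and 0.47, and SELENOS at -0.40 and 0.25. TXNRD1 ran the other way, with 0.23 in input and -0.28 in footprints, as did SECISBP2L with 0.37 and -0.32. Over the 19 members Pearson's r between the input and footprint differences was -0.65, and over 8117 protein-coding genes it was -0.42. On this centred scale GPX4, MSRB1, SELENOM and SELENOT were higher under the PRMT4 label in both kinds of library, and SELENOF, SELENOI and SECISBP2 under the PRMT1 label.

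Factors that assist the pathway without being part of the 31 were measured beside them, all 7 of those listed. TRNAU1AP, which binds the selenocysteine transfer RNA, had 39.4, 30.7 and 26.7 TPM in input and 268, 242 and 232 TPM in footprints, so its footprints exceeded its input in every treatment. NCL and EIF4A3, RNA-binding proteins reported to contact SECIS elements, stood at -1.0 and -0.72 in footprints labelled PRMT1 inhibitor. LRP8, the receptor that takes up SELENOP, stood at 1.17 in the same library, from 2.22 TPM in DMSO to 5.54 TPM. RPL30, a ribosomal protein that binds SECIS elements, was between 0.11 and 0.28 in all 4 ratios to DMSO. The medians of the 7 were -0.19 and -0.18 in the inputs labelled PRMT1 and PRMT4 inhibitor and 0.00 and -0.22 in the footprints. Of 5 relatives of selenoproteins that use cysteine instead, GPX8 and MSRB2 were compared, and neither left the range from -0.16 to 0.32 in those ratios.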

How the data were processed

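The deposited table gave TPM per gene and library, computed by the authors, to 2 decimals. RSEM 1.2.22, STAR 2.4.2a, Bowtie 1.1.2 and cutadapt 1.18, and the build GRCh37.p13, are named per the submitters' processing notes, without order or settings. Of 60461 identifiers, 41 pseudoautosomal Y copies, all at 0, were dropped. Symbols were found for 55725 of the remaining 60420 and gene types for 56157. GENCODE release 29, on a later build, served for names, gene types, overlaps and coding sequences, without coordinates.

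Ratios were log2((TPM + 1) / (TPM + 1)) over the 9040 genes with a mean of at least 5 TPM, centred on their median; the pseudocount understates changes of low genes. With 1 library per group no test was made, and genes at least 2-fold from the median were counted. Every member is accounted for; other genes named belong to fixed lists, unless said otherwise. The members and lists were chosen with earlier results of these data known. The calculations were tested on simulated data. Python 3.11.15 was used with pandas 2.3.3, numpy 2.4.6, matplotlib 3.10.9 and scipy 1.17.1. No column was without a library. Alternatives changed the pseudocount, the filter, the centring, the scale, a GC and length adjustment, and the pairing of inhibitor libraries.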

Additional observations from a re-analysis of the deposited data

How the results depend on the processing

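No paired analysis was possible because the labels carry no replicate numbers and each group has 1 library, and for the same reason no library could be left out. The depth of the libraries is unknown, so the precision of low members such as TXNRD2 and SECISBP2L cannot be given. No member reached 2-fold against DMSO in input, footprints or their ratio under any of the alternatives run, within the members each compared. The selenoprotein median and its difference from the synthesis factor median are given below where they moved by 0.1 or more on the log2 scale; none was tested, and except where fewer or more genes entered, the cause was not tested. The values they replace are in the report; for the changes in footprints over input the differences were 0.62 (PRMT1 label) and -0.06 (PRMT4 label), and in DMSO -0.02. With a filter of 1 TPM the medians were -0.041 (input, PRMT1 label) and 0.27 (footprints over input in DMSO), and the differences -0.052 and 0.12 (inputs, PRMT1 then PRMT4 label), 0.083 and 0.098 (footprints) and 0.058 (change in footprints over input, PRMT1 label). With a filter of 20 TPM the medians were -0.071 and 0.080 (inputs), 0.26 (DMSO footprints over input) and 0.18 (its change, PRMT1 label), and the differences -0.069 and 0.080 (inputs), 0.64 (footprints, PRMT1 label), 0.52 (DMSO footprints over input) and 0.10 (its change, PRMT4 label). With no filter the medians were -0.034 (input, PRMT4 label), 0 (footprints, PRMT1 label) and 0.17 (change in footprints over input, PRMT4 label), and the differences 0.19 (input, PRMT4 label), 0.087 and 0.037 (footprints), -0.18 (DMSO footprints over input), and 0.025 and -0.20 (its changes). Without centring the medians were -0.076 and -0.14 (inputs), -0.028 (footprints, PRMT1 label) and 0.38 (change in footprints over input, PRMT4 label). On the protein-coding scale, which was not centred, the DMSO footprints-over-input median was -0.47. With a pseudocount of 5 the differences were 0.22 (input, PRMT4 label), 0.34 (footprints, PRMT1 label) and 0.50 (change in footprints over input, PRMT1 label). Adjusted for GC content and length, the differences were 0.15 (input, PRMT4 label) and 0.38 (footprints, PRMT1 label), and the median change in footprints over input for the PRMT4 label was -0.16. With inhibitor labels crossed, the median for the PRMT1 label was -0.030, and the differences were 0.23 and 0.13. Members at least 2-fold from the median gene in DMSO footprints over input numbered 3 with a pseudocount of 5, 9 with a filter of 1 TPM, 1 with a filter of 20 TPM and 8 with no filter, against 5. Of 133 member values, 95 moved by 0.1 or more with no filter and 76 without centring. After the GC and length adjustment 47 moved, and on the protein-coding scale 32. Values of opposite sign, whether or not they moved that far, numbered 16, 17, 17 and 16 in the same order. With labels crossed 25 of 38 values moved by 0.1 or more, and 11 of the 38 had the opposite sign.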

Other observations

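Partners of the thioredoxin reductases and glutathione peroxidases, from thioredoxins, peroxiredoxins and glutaredoxins to the enzymes that make or restore glutathione, were measured as a list of 17, all of which were compared. Their medians were -0.17 in the input labelled PRMT1 inhibitor, -0.20 in the input labelled PRMT4 inhibitor, -0.16 in the footprints labelled PRMT1 inhibitor and -0.04 in those labelled PRMT4 inhibitor, with 3, 4, 2 and 6 of 17 above 0. PRDX3, the mitochondrial peroxiredoxin, had 167 TPM in the DMSO input against 122 and 82.0 TPM in the PRMT1 and PRMT4 labels, and 384 TPM against 237 and 325 TPM in footprints. GLRX5, a mitochondrial glutaredoxin of iron-sulfur cluster assembly, stood at -0.73 in the input labelled PRMT4 inhibitor and -0.67 in footprints labelled PRMT1 inhibitor. GCLM, the modifier subunit of the enzyme that starts glutathione synthesis, went the other way in those libraries, at 1.01 and 1.33.

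TXNRD1 is a known target of the stress-responsive factor NRF2, as are HMOX1, NQO1 and GCLM. HMOX1, which breaks down haem, had 7.53, 21.6 and 156.5 TPM in input and 33.0, 642 and 93.9 TPM in footprints, so the highest input and the highest footprint value carried different inhibitor labels. NQO1, a quinone reductase, was above DMSO in all 4 inhibitor libraries, at centred values of 0.76 to 0.92. TXNRD1 lay between -0.35 and 0.23 in the same ratios. The 13 compared genes of the NRF2 list had medians of -0.04 and 0.11 in the inputs labelled PRMT1 and PRMT4 inhibitor and of 0.00 and 0.12 in the footprints. The list was mixed. HMOX1, NQO1, GCLM, FTL and FTH1 were above 0 in all 4 ratios. PGD (-0.54 to -0.36), TALDO1, TKT and SRXN1 were below 0 in all 4, and the rest varied in sign. Sequence near the starts of the members was searched for TGACNNNGC, the core letters of the antioxidant response element, on both strands of RefSeq promoters (GRCh38.p14, 300 bases, of which 250 lie upstream). It was found in 7 of the 38 promoters of the 28 members in that table (18.4%), and in 13.3% of all 35116 promoters. The 7 promoters belong to 6 genes: GPX2, SELENOK, SELENON, SELENOP, SECISBP2 and TXNRD1. One TXNRD1 promoter holds 2 matches, of which the one that begins 99 bases upstream of the start is printed, with the matched letters in capitals, in a window at chr12:104215670-104215698 on the plus strand.
TXNRD1: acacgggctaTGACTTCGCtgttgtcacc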
